A study of Mus musculus with 17 samples.

Results

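Bulk nuclear RNA of the mouse medial prefrontal cortex (mPFC) was compared between mice exposed to chronic unpredictable stress (CUS) and control mice. These libraries were chosen by their assay and tissue alone, and they are 9 of the 17 samples of the series, 5 from CUS mice and 4 from control mice. All 9 were male C57BL/6 mice (C57BL/6J in the Methods) of postnatal day 90, and the labels list no treatment other than stress. CUS mice met 3 changing stressors a day for 12 days from an age of 9 to 10 weeks, while control mice were handled daily and kept in a separate room. According to the Methods, tissue was collected 24 h after behavioral testing ended, as a 2 mm punch centered on the midline of a 1 mm coronal section, so that nuclei of all cell types in the punch were pooled. The sample labels instead give 24 h after the final stressor and name the neocortex. The other 8 samples are single-nucleus libraries of the neocortex from other mice, 4 CUS and 4 control, and are used below only for comparison.

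The mPFC takes part in the control of emotion and of the hormonal stress response, and its excitatory neurons express receptors for corticosteroids. Repeated stress in rodents is used to model features of depression, and in the mPFC it is known for effects on dendrites, spines and glutamate receptors. RNA taken from nuclei is rich in unspliced and newly made transcripts, so that introns, long genes and noncoding transcripts contribute many reads. In pooled nuclei, fewer nuclei of a type and less RNA in each nucleus of that type cannot be told apart.

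The deposited values are read counts per gene, and 26188825 to 30525015 reads per mouse fell on the 36293 genes listed. Levels are given as CPM, counts scaled to a common library size with edgeR's TMM factors, and 18394 genes passed its filter on low counts. Control mice differed more from each other than CUS mice did: the chi-square statistic of 2 libraries, divided by its degrees of freedom, was 8.3 to 26.9 for pairs of control mice and 3.04 to 10.8 for pairs of CUS mice. The first principal component held 27.1% of the variance and placed all 4 control mice on one side and all 5 CUS mice on the other. The libraries also differed in tissue markers. Of the 13 genes listed as markers of striatal neurons, Drd2, a dopamine receptor, had 2.38, 1.79, 4.15 and 19.0 CPM in control replicates 1 to 4 and 1.18 to 2.24 CPM in CUS mice. Control replicate 4 was also highest for Drd1 (19.7 CPM against 5.33 to 8.11 CPM in the other 8 mice) and for Adora2a, an adenosine receptor of striatal neurons (6.64 CPM against 1.55 to 2.48 CPM). The summed CPM of the 13 genes went the other way, with 771, 906, 1214 and 1350 in control replicates 1 to 4 and 1266 to 1523 in CUS mice. Its largest part was Pde10a, at 603 to 945 CPM in control mice and 1089 to 1338 CPM in CUS mice. The summed CPM of 22 genes of mature oligodendrocytes and myelin was 475, 695, 1002 and 1021 in control replicates 1 to 4 and 494 to 612 in CUS mice, so that control replicates 3 and 4 stood highest. Of the choroid plexus and meningeal markers, Ttr was at 0 to 0.0747 CPM in every mouse, while Clic6 had 3.03 CPM in control replicate 4 against 0.101 to 0.944 CPM in the other 8 mice, and the summed CPM of the 12 genes was also highest in that mouse (53.4 against 23.5 to 42.8). Markers of cortical excitatory neurons such as Slc17a7, the vesicular glutamate transporter, were present in all 9 (146 to 219 CPM). The part of these differences in the results below was not tested, and the calls of a gene list are also given without control replicates 3 and 4 where their number moved by more than 1.5 times or the balance of directions turned.

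**Figure D1:**
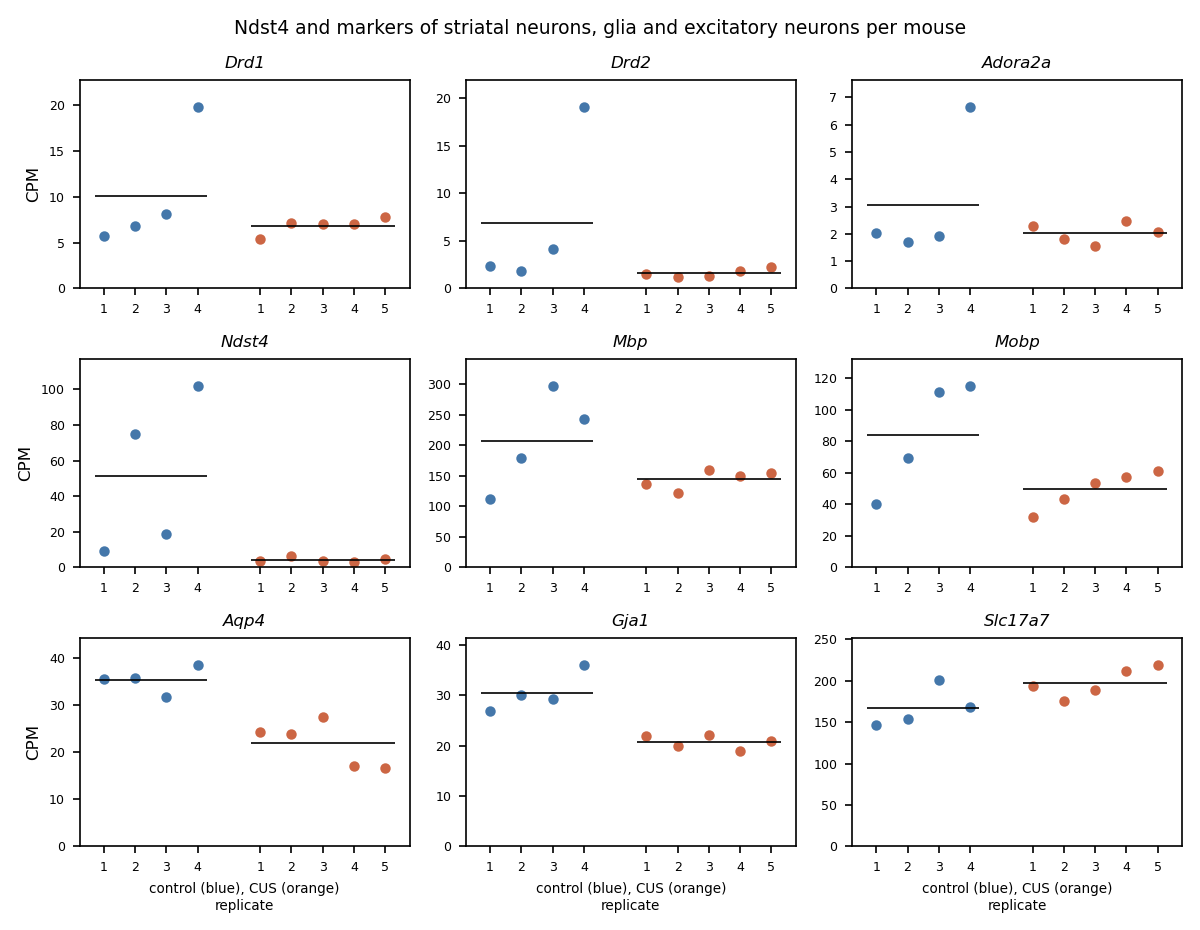
CPM of 9 genes in each of the 4 control (blue) and 5 CUS (orange) mice, with horizontal lines at the group means and every axis starting at 0. Control replicate 4 is highest for the striatal genes Drd1, Drd2 and Adora2a, control replicates 3 and 4 for the myelin genes Mbp and Mobp, and control replicates 2 and 4 for Ndst4. The astrocyte genes Aqp4 and Gja1, both from the 5 called among 21 astrocyte markers, are lower in all 5 CUS mice than in any control mouse.

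The comparison asked which nuclear transcripts were at another level after chronic stress. In edgeR's quasi-likelihood test at a false discovery rate (FDR, Benjamini-Hochberg) of 0.05, 606 of 18394 genes were called, or 3.29% of those tested. Of these, 392 were lower (2.13%) and 214 were higher (1.16%) in CUS mice. The median log2 fold change of all tested genes was 0.01, and called genes had a median size of 0.44, with 47 lower and 10 higher by more than 1. Lower genes were 64.7% of the calls, 75.3% without TMM factors, 81.2% without control replicate 2 and 53.4% without control replicate 3. The number of calls depended on single mice: it was 133 without control replicate 2, 140 without CUS replicate 5, 148 without CUS replicate 4, 316 without CUS replicate 3, 352 without CUS replicate 1 and 1508 without control replicate 3. Of the 106 called genes among those named by rule or in the text, 38 stayed past the threshold with each of the 9 mice left out in turn, and the others lost it most often without control replicate 2 (64 genes), CUS replicate 5 (63 genes) or CUS replicate 4 (54 genes). Without control replicates 3 and 4 there were 1351 calls among 18921 genes tested, of which 458 were among the 606. They were 699 lower and 652 higher, and list counts from this fit are to be read beside these totals. With each mouse left out the totals ran from 103 to 805 lower and from 25 to 703 higher. Without control replicates 2 and 4 there were 37 calls, 33 of them among the 606. In that fit Tnr (FDR 0.0658 from edgeR) and Gja1 (0.0734) were not called. No gene among the 606 turned its direction in any fit. The gene lists below were chosen with earlier results of these data known, so list counts beside those of all genes are descriptions and not tests.

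Genes with the smallest p among those whose groups did not overlap held their calls with any single mouse left out. Spag16, a component of the axoneme of cilia (mm10 chromosome 1, 69826970 to 70725132), had 12.3, 10.5, 16.9 and 16.1 CPM in control mice and 3.16, 6.51, 4.28, 3.11 and 6.03 CPM in CUS mice. The group means were 13.9 ± 3.05 CPM (SD, n = 4) and 4.62 ± 1.58 CPM (SD, n = 5). On the log2 scale Spag16 changed by -1.60 (SE 0.21, FDR 0.0054 from edgeR). Dbx2, a homeobox transcription factor, varied little within groups: it had 8.68, 9.03, 9.26 and 9.57 CPM in control mice and 5.56 to 6.44 CPM in CUS mice (log2 fold change -0.63, SE 0.08). The lincRNA 6530403H02Rik fell from 94.5 ± 19.2 to 42.3 ± 9.55 CPM (log2 fold change -1.16). Smaller falls were seen for Sugct, an enzyme of glutarate metabolism (-0.58), Cntnap5c, of the contactin-associated family of adhesion proteins (-0.45), and Ranbp17, a nuclear transport receptor (-0.51). Skap1, an adaptor protein known from T cells, was at 9.28 to 11.6 CPM in control mice and at 5 to 6.15 CPM in CUS mice.

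In the other direction, Tnr, which encodes the matrix protein tenascin-R of perineuronal nets, was at 797, 802, 990 and 793 CPM in control mice and at 1320, 1244, 1217, 1202 and 1168 CPM in CUS mice. The log2 fold change of Tnr was 0.54 (SE 0.07, FDR 0.00567 from edgeR). Myt1l, a zinc finger factor of neurons, rose from 947 ± 58.8 to 1281 ± 44.9 CPM (log2 fold change 0.44), and Maml3, a coactivator of Notch signaling, from 142 ± 20.2 to 220 ± 11.3 CPM (0.63). Iqgap2, a cytoskeletal scaffold, had 80.1, 91.2, 129 and 106 CPM in control mice and 159 to 210 CPM in CUS mice (log2 fold change 0.81, SE 0.12). Rises were also called for Micalcl (log2 fold change 0.82) and for Atp6v0a4, a subunit of the vacuolar proton pump (0.60). The genes with the largest fold changes were near the detection limit or varied between control mice. Ndst4, an enzyme of heparan sulfate synthesis, had 9.33, 74.7, 18.6 and 102 CPM in control mice and 2.98 to 6.51 CPM in CUS mice. The paper also names a cluster of layer 2/3 excitatory neurons by Ndst4, and the part of cell numbers in its change was not tested. The log2 fold change of Ndst4 was -3.59 with all mice and -1.70 without control replicates 2 and 4 (FDR 0.0450 from edgeR). The lincRNA Gm42825 (-2.86) and Clic6 (-2.62) were highest in control replicate 4, and the rising transcripts Gm14015 (1.44), Nodal (1.30), a growth factor gene, and 2010300F17Rik (1.24) had at most 2.2 CPM in any mouse. The calls of Nodal and 2010300F17Rik were each lost without 7 of the 9 mice in turn and that of Gm14015 without 5 (FDR up to 0.138), and that of Gm42825 was lost without CUS replicate 4 or 5 (FDR up to 0.0631).

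Neuronal activity induces a rapid wave of transcription factors, which is followed by genes that act on synapses, signaling and secretion. Of 26 tested genes for rapid transcription factors and related early regulators, 6 were called lower and 1 higher (all genes: 2.13% and 1.16%), and their median log2 fold change was -0.16. The lower genes were Nr4a2, Nr4a3, Btg2, Fos, Fosl2 and Crem, and the higher gene was Bhlhe40. Nr4a2, an orphan nuclear receptor, had 7.97, 10.9, 6.16 and 9.01 CPM in control mice and 2.1, 3.39, 2.69, 2.52 and 1.93 CPM in CUS mice (log2 fold change -1.76). Its relative Nr4a3 had 82.7, 88.7, 48.4 and 48.7 CPM in control mice and 28, 35.6, 31.7, 30.6 and 21.4 CPM in CUS mice (log2 fold change -1.19, SE 0.19, FDR 0.00954 from edgeR). In both genes all CUS mice lay below all control mice, and in Nr4a3 and Btg2 control replicates 1 and 2 stood above control replicates 3 and 4. Btg2, an antiproliferative early gene, had 22.6, 18.7, 11.2 and 12.1 CPM in control mice and 5.08 to 9.15 CPM in CUS mice (log2 fold change -1.07). Crem, a factor that binds cAMP response elements, showed a small change with little spread, from 29.1 ± 1.21 to 23.1 ± 0.508 CPM (log2 fold change -0.33). Nr4a1, Egr1, Egr3 and Junb had log2 fold changes of -0.17, -0.01, -0.16 and -0.16, none past the threshold, and Fosb had one of -0.60 (FDR 0.0708). Fold changes were negative in 18 of the 26 genes. The calls of Nr4a2, Nr4a3, Fos and Crem held without any single mouse, that of Fosl2 was lost without control replicate 2 (FDR 0.0512) and that of Btg2 without control replicate 2, CUS replicate 4 or CUS replicate 5 (FDR up to 0.0696). Without control replicates 2 and 4, Nr4a2 and Nr4a3 stayed called (FDR 0.0319 and 0.0490 from edgeR) and Fos and Crem did not (0.0596 and 0.122). Without control replicates 3 and 4, 9 members were called lower and 2 higher (all genes in that fit: 699 and 652 of 18921).

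Of 36 activity-regulated effector genes, 7 were called lower and 2 higher (all genes: 2.13% and 1.16%), with a median log2 fold change of 0.01, which is that of all genes. The counts were 7 lower and 6 higher without control replicates 3 and 4 (all genes in that fit: 699 and 652 of 18921). Cyr61, a secreted matrix protein that leads this list, had 4.49, 5.56, 3.06 and 4.37 CPM in control mice and 1.04 to 1.58 CPM in CUS mice. Dusp1, a phosphatase that switches off MAP kinases, had 14.2, 12.5, 10.4 and 12.1 CPM in control mice and 8.35, 8.01, 7.14, 8.18 and 8.95 CPM in CUS mice (log2 fold change -0.60, SE 0.10, FDR 0.0100). Sik1, a salt-inducible kinase, fell from 11.8 ± 1.32 to 7.74 ± 0.716 CPM (log2 fold change -0.60). Tiparp, an ADP-ribosyltransferase, fell by 0.68 on the log2 scale, Arl5b, a small GTPase, by 0.57, and Pcsk1, which cleaves prohormones, by 0.49. Homer1, a postsynaptic scaffold gene with a short activity-induced form, was at 507 to 632 CPM in control mice and at 401 to 499 CPM in CUS mice. The rising members were Vgf, the precursor of secreted neuropeptides (log2 fold change 0.59, FDR 0.0465), and Nrn1, which encodes neuritin (0.34, FDR 0.0430). Arc and Bdnf, both widely used as markers of activity, had log2 fold changes of -0.33 (FDR 0.0986) and -0.03. The calls of Cyr61, Sik1 and Dusp1 held without any single mouse, and those of Tiparp and Arl5b were lost without control replicate 2 or CUS replicate 5, for Arl5b also without CUS replicate 4 (FDR up to 0.0763). Without control replicates 2 and 4, Cyr61 stayed called (FDR 0.0319 from edgeR) and Sik1 and Dusp1 did not (0.120 and 0.103). Those of Homer1, Pcsk1, Nrn1 and Vgf were lost without 6 or 7 of the 9 mice in turn, CUS replicates 4 and 5 and control replicates 1 and 2 among them in each case, with an FDR of up to 0.137.

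**Figure D2:**
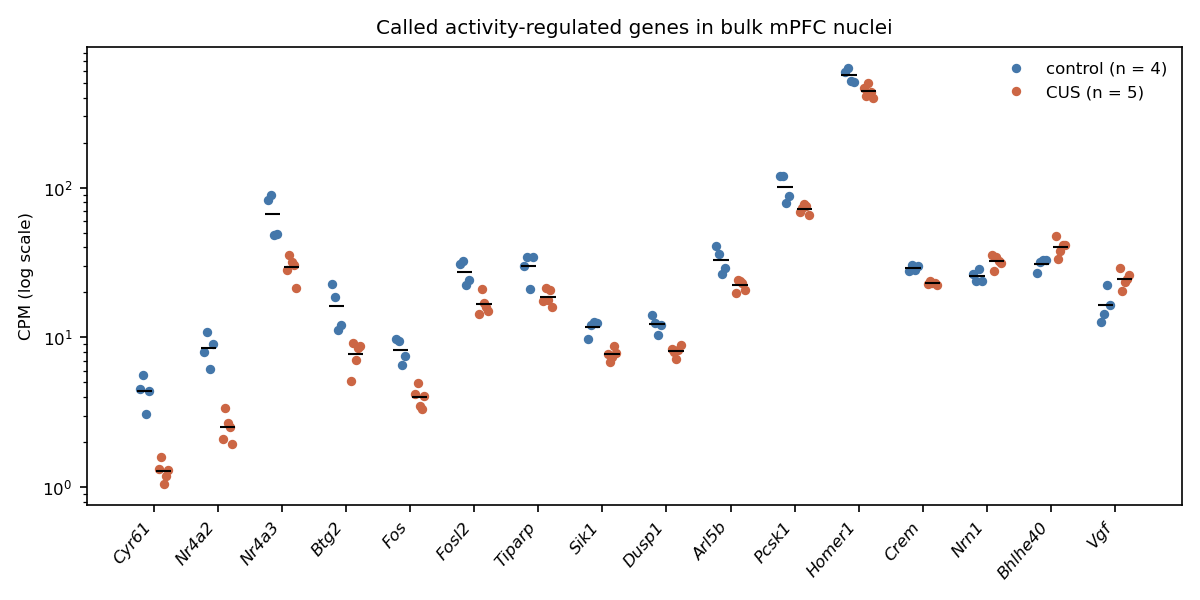
CPM (log scale) of the 16 activity-regulated genes called in bulk mPFC nuclei, in control (blue, n = 4) and CUS (orange, n = 5) mice, ordered by fold change with lines at the group means. The groups do not overlap for Cyr61, Nr4a2, Nr4a3, Btg2, Fos, Fosl2, Sik1, Dusp1, Arl5b, Pcsk1, Homer1, Crem and Bhlhe40, as for 89.4% of all called genes. The last 3 genes, Nrn1, Bhlhe40 and Vgf, are higher in CUS mice.

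Many activity-regulated promoters hold the cAMP response element TGACGTCA, which reads the same on both strands. In RefSeq promoter windows of build GRCm38.p6, from 250 bases before to 50 bases after the gene start, it was found in 588 of 32851 windows (1.79%). It was present in 7 of 27 matched effector genes, of which Arl5b, Pcsk1 and Dusp1 were called lower and Plk2, Errfi1, Arl4d and Scg2 were not called, and in 2 of 20 matched transcription factor genes, Btg2, which was called, and Maff, which was not. The sequences around the element in 3 called genes are shown because these lower genes share it, with the element in capitals, on the strand of the gene.
Btg2 (chr1:134079288-134079347, minus strand, element starting 166 bases before the gene start): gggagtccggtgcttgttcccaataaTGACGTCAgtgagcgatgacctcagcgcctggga
Dusp1 (chr17:26508582-26508641, minus strand, 143 bases before the start): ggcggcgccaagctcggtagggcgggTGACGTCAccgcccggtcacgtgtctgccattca
Pcsk1 (chr13:75089753-75089812, plus strand, 78 bases before the start): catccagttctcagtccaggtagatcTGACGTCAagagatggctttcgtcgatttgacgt

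Corticosteroids act on the brain through the mineralocorticoid receptor Nr3c2 and the glucocorticoid receptor Nr3c1, which are held by heat shock proteins until hormone binds. Of 12 genes for these receptors, their chaperones and corticotropin-releasing hormone (CRH) signaling, 1 was called, lower (2.13% of all genes), and the median log2 fold change was -0.13. Nr3c2 had 241, 262, 251 and 263 CPM in control mice and 220, 218, 231, 206 and 211 CPM in CUS mice, without overlap (log2 fold change -0.23, SE 0.05, FDR 0.0399 from edgeR). The call was lost without control replicate 2 or 4 or CUS replicate 1, 2, 4 or 5 (FDR up to 0.130). Nr3c1 had means of 166 and 141 CPM, with a log2 fold change of -0.23 that missed the threshold (FDR 0.0781). Crhr1, the main CRH receptor of cortex, had a log2 fold change of 0.34 (FDR 0.112), and Fkbp5, a cochaperone that glucocorticoids induce, one of -0.04. Of 21 tested genes that glucocorticoids are known to induce, Dusp1 alone was called, lower (all genes: 2.13%), and the median was -0.03. With control replicates 3 and 4 left out, 2 of the 12 genes were called, both lower, and of the 21 targets 1 was called lower and 2 higher, with a median of 0.09.

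Cells make cholesterol from acetyl-CoA through the mevalonate pathway, whose genes are switched on by SREBP factors when sterols are scarce, and brain cells depend on this local synthesis because lipoproteins of the blood do not enter. Of 31 genes for cholesterol and fatty acid synthesis and uptake, 8 were called lower and none higher, against 2.13% and 1.16% of all genes, and 30 of 31 had negative fold changes, against 48.7% of all genes. This list too was chosen with earlier results of these data known, so the excess over all genes was not tested. The median log2 fold change was -0.24, and it stayed between -0.25 and -0.21 with each mouse left out and was -0.23 without control replicates 3 and 4. Hmgcs1, which makes HMG-CoA near the start of the pathway (chromosome 13, 119690379 to 119708260), had 80.8, 76.5, 66 and 68.1 CPM in control mice and 52.9, 55.1, 60.2, 58.4 and 49.9 CPM in CUS mice (log2 fold change -0.40, SE 0.07, FDR 0.0162 from edgeR). All CUS mice lay below all control mice. Of the later steps, Idi1, the isomerase that makes the reactive isoprene unit, fell by 0.65 on the log2 scale, Sqle, the squalene epoxidase, by 0.39, Cyp51, the lanosterol demethylase, by 0.41, and Msmo1, a sterol oxidase, by 0.43. Among enzymes of fatty acids, Elovl5, which elongates polyunsaturated fatty acids, had 43, 45.4, 41.4 and 49.2 CPM in control mice and 30.4 to 32.5 CPM in CUS mice, and Fads2, a desaturase, fell from 32.1 ± 3.12 to 25.3 ± 1.41 CPM. The factors Srebf1 and Srebf2 had log2 fold changes of 0.02 (-0.00814 without TMM factors) and -0.15, and neither was called. The call of Elovl5 held without any single mouse. Those of the other genes named here were lost without control replicate 2 or CUS replicate 5, Fads2 also without CUS replicate 1 or 4, and Idi1 also without CUS replicate 1, 3 or 4 or control replicate 1 or 4 (FDR up to 0.131), so that 2 to 11 members were called with each mouse left out. Without control replicates 3 and 4 there were 11 calls, all lower (all genes in that fit: 699 lower of 18921).

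**Figure D3:**
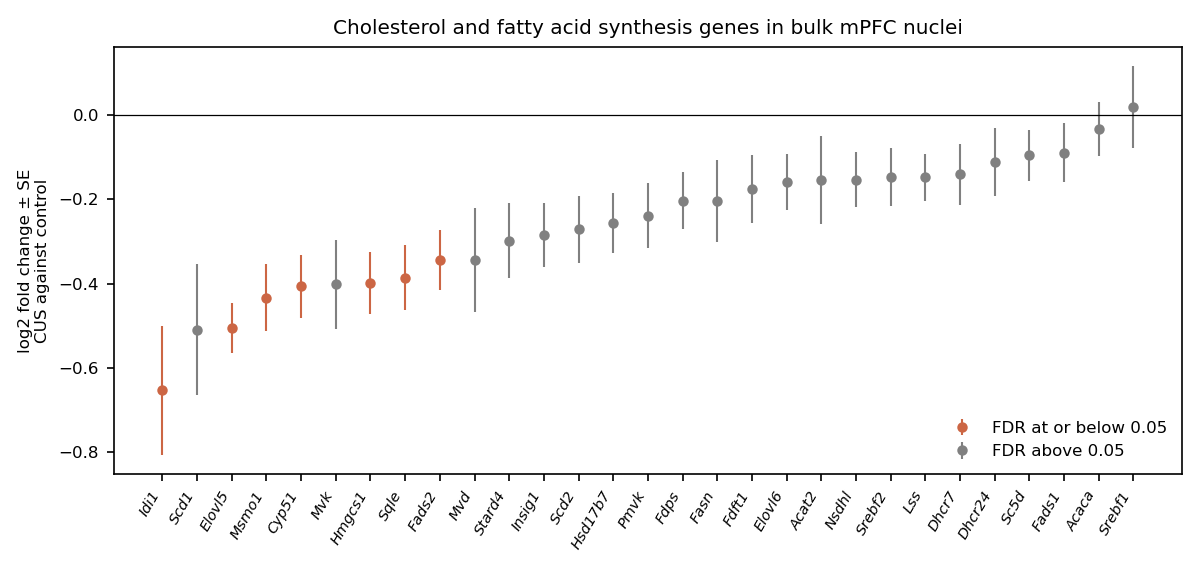
Log2 fold change (CUS against control) with its standard error for 29 of the 31 genes of cholesterol and fatty acid synthesis and uptake, in orange where the FDR was at or below 0.05. All but Srebf1 lie below 0, and the 7 called genes shown range from -0.65 (Idi1) to -0.34 (Fads2).

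The sterol regulatory element TCACNCCAC was searched on both strands of the same promoter windows and found in 408 of 32851 (1.24%). Among 21 matched genes of the list it was in the window of Hmgcs1 alone, where its start lay 137 bases before the gene start. The window is shown because Hmgcs1 is the called gene of the list that holds the element, which is in capitals.
Hmgcs1 (GRCm38.p6 chr13:119690188-119690248, plus strand): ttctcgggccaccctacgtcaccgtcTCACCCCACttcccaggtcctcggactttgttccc

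Glial markers were examined by class. Of 21 astrocyte markers, 5 were called lower and none higher (all genes: 2.13% and 1.16%), with a median log2 fold change of -0.22. Gja1, the gap junction protein connexin 43, had 26.8, 30, 29.4 and 36 CPM in control mice and 21.9, 20, 22.1, 18.9 and 21 CPM in CUS mice (log2 fold change -0.56, SE 0.08, FDR 0.00813 from edgeR). Mlc1, a membrane protein of astrocyte endfeet, had 18.7, 22.8, 25.3 and 27.2 CPM in control mice and 13.4 to 16.1 CPM in CUS mice (log2 fold change -0.70). Aqp4, the water channel of endfeet, fell from 35.4 ± 2.76 to 21.9 ± 4.77 CPM (log2 fold change -0.69), with CUS replicates 4 and 5 lowest at 17.2 and 16.6 CPM. The groups did not overlap for these 3 genes or for Clu, a secreted chaperone (log2 fold change -0.40), while Slc4a4, a bicarbonate transporter, overlapped (-0.48). Not all astrocyte markers fell: fold changes were negative in 18 of the 21. Those of Aldh1l1 (0.04), Fgfr3 (0.08) and S100b (0.04) were positive, and Slc1a2 (-0.04) and Ntsr2 (-0.01) lay near 0. The summed CPM of the 21 markers was 2823 to 3379 in control mice and 2565 to 2973 in CUS mice, so the summed levels overlapped. Gja1 and Mlc1 were called without any single mouse and Aqp4 was lost without control replicate 2 alone (FDR 0.0561), while Clu and Slc4a4 were lost without 5 and 7 of the mice in turn. Without control replicates 3 and 4, 4 of the 21 were called and the median was -0.12.

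Each of the 22 genes of mature oligodendrocytes and myelin had a negative fold change, with a median of -0.49, and 2 were called, both lower (all genes: 2.13%). These were Ugt8a, an enzyme of myelin lipids (log2 fold change -0.58, FDR 0.0307), and St18, a zinc finger factor (-0.73, FDR 0.0461). The levels followed the control mice that stood apart. St18 had 52.6, 80.1, 106 and 120 CPM in control mice and 47.5 to 61.6 CPM in CUS mice, and Mbp, the myelin basic protein gene, had 112, 179, 296 and 242 CPM in control mice and 122 to 160 CPM in CUS mice, so that control replicate 1 lay within or below the range of CUS mice in both. With each mouse left out the number of calls in the list ran from 0 to 16, with 0 without control replicate 4, and without control replicates 3 and 4 none was called and the median was -0.09. Among 14 markers of oligodendrocyte precursors and newly formed oligodendrocytes, Tnr was called higher and Lhfpl3 and Bcas1 lower (all genes: 1.16% and 2.13%), and the median was -0.11. With control replicates 3 and 4 left out, 1 was called lower and 1 higher and the median was 0.00, and the call of Bcas1 was lost without 7 of the 9 mice in turn (FDR up to 0.0999). Lhfpl3, a membrane protein of precursors, had 235, 270, 277 and 296 CPM in control mice and 163 to 233 CPM in CUS mice (log2 fold change -0.56), and its call was lost without control replicate 2 or CUS replicate 4 or 5 (FDR up to 0.0526). No microglial marker (17 tested, median -0.03) or vascular marker (16 tested, median 0.07) was called, and the smallest p belonged to P2ry12, a purine receptor of microglia (log2 fold change 0.31, FDR 0.203), and to Ly6c1, a surface protein of endothelium (0.37, FDR 0.0820). Of 9 tested choroid plexus and meningeal markers, Clic6 was called lower (all genes: 2.13%), and its call was lost without control replicate 4 (FDR 0.0797) and without each CUS replicate in turn (FDR up to 0.119). None of the 9 was called without control replicates 3 and 4.

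Few markers of cortical neuronal types were called. None of 8 markers of excitatory layers 2 to 4 (median log2 fold change 0.08) and none of 12 tested markers of layers 5 and 6 (median -0.06) was called, the smallest p belonging to Otof (0.21, FDR 0.113) and Deptor (0.31, FDR 0.0834). Of 11 general and excitatory neuron markers, Neurod6, a transcription factor of excitatory neurons, was called higher (all genes: 1.16%). Neurod6 had 13.3, 11.9, 13.7 and 12.3 CPM in control mice and 16.2 to 19.4 CPM in CUS mice (log2 fold change 0.46, SE 0.08, FDR 0.0119), and its call was lost without control replicate 2 (FDR 0.0512). Of 18 interneuron markers, 1 was called lower and 2 higher (all genes: 2.13% and 1.16%), with a median of 0.00, and without control replicates 3 and 4 there were 1 lower and 3 higher. Ndnf, a secreted factor of layer 1 cells, had 23.1, 24.5, 17.9 and 21.8 CPM in control mice and 12.6 to 17.8 CPM in CUS mice (log2 fold change -0.49). Htr3a, a serotonin-gated channel, had 1.28, 1.48, 1.72 and 1.51 CPM in control mice and 2.29 to 2.79 CPM in CUS mice (0.73), and Lamp5, a membrane protein of neurogliaform cells and some excitatory neurons, rose from 25.6 ± 2.13 to 33.3 ± 3.53 CPM (0.39). The calls of Ndnf and Lamp5 were each lost without 6 of the 9 mice in turn, CUS replicates 3, 4 and 5 and control replicates 2 and 4 among them, and that of Htr3a without control replicate 2 or CUS replicate 5. Of 11 tested striatal markers, 10 had negative fold changes with a median of -0.77, none of them called, and the median was -0.17 without control replicate 4 and -0.02 without control replicates 3 and 4. The exception was Pde10a, a phosphodiesterase that cortex also expresses. It had 603, 715, 945 and 851 CPM in control mice and 1089 to 1338 CPM in CUS mice (log2 fold change 0.61, SE 0.11, FDR 0.0161), and 0.84 without control replicates 3 and 4. Its call, higher (all genes: 1.16%), was lost without control replicate 2 (FDR 0.0595). Without control replicates 3 and 4, 4 of the general and excitatory neuron markers were called, all higher, and of the markers of layers 5 and 6 1 was called lower and 1 higher.

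Glutamate acts on ion channels of the AMPA, NMDA and kainate classes and on metabotropic receptors. Of 24 glutamate receptor genes, 5 were called higher and none lower in CUS mice (all genes: 1.16% and 2.13%), and the median log2 fold change was 0.05. Grin2a, an NMDA receptor subunit of mature neurons (chromosome 16, 9567898 to 9995560), had 1062, 1166, 1504 and 979 CPM in control mice and 1971, 1773, 1828, 1672 and 1647 CPM in CUS mice (log2 fold change 0.59, SE 0.11, FDR 0.0159 from edgeR). Grin2b, the other main cortical NMDA subunit of this kind, had 1632, 1698, 1909 and 1319 CPM in control mice and 2061 to 2184 CPM in CUS mice (0.37), and Gria1, an AMPA receptor subunit, had 1074, 1227, 1401 and 1149 CPM in control mice and 1486 to 1700 CPM in CUS mice (0.38). In these 3 genes every CUS mouse was above every control mouse, and control replicate 3 was the highest control. Grik4, a kainate receptor subunit, rose from 166 ± 43.2 to 250 ± 22.3 CPM (0.59). Grin2a was lost without control replicate 2 (FDR 0.0521), Gria1 without control replicate 2 or CUS replicate 4 or 5 (FDR up to 0.0705), and Grin2b and Grik4 without 7 and 6 of the mice in turn (FDR up to 0.105). The number of members called higher ran from 0 to 8 with each mouse left out, and without control replicates 3 and 4 there were 5 higher and 2 lower (all genes in that fit: 652 and 699 of 18921).

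Postsynaptic scaffold and adhesion genes were called in both directions, 3 lower and 2 higher of 38 (all genes: 2.13% and 1.16%), with a median log2 fold change of 0.07. Without control replicates 3 and 4 there were 4 lower and 8 higher (all genes in that fit: 699 and 652 of 18921). Lrrtm1, a leucine-rich adhesion protein of excitatory synapses, had 7.32, 7.15, 8.44 and 7.89 CPM in control mice and 10.7, 10.6, 11.1, 12.3 and 11.1 CPM in CUS mice (log2 fold change 0.53, SE 0.08, FDR 0.0085 from edgeR), and this call held without any single mouse. Dlgap2, a scaffold of the postsynaptic density, had 1316 to 2001 CPM in control mice and 2161 to 2409 CPM in CUS mice (0.40). The lower genes were Homer1 and the adhesion genes Adam23 (-0.33) and Alcam (-0.31), and the last of these overlapped between the groups. Dlgap2, Homer1, Adam23 and Alcam lost their calls without 6 to 8 of the 9 mice in turn, control replicate 2 and CUS replicates 4 and 5 among them in each case (FDR up to 0.131). Of 16 genes for GABA receptors and gephyrin, Gabrg1, a receptor subunit that astrocytes also express, was called, and it was lower (all genes: 2.13%). Gabrg1 had 15.4, 13.7, 10.6 and 13.5 CPM in control mice and 7.54 to 9.7 CPM in CUS mice (-0.62, SE 0.11, FDR 0.0145). Its call was lost without control replicate 2 or CUS replicate 5 (FDR up to 0.0525). In this list 1 member was called lower and 3 higher without control replicates 3 and 4.

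Of 48 potassium channel genes, 3 were called higher and none lower (all genes: 1.16% and 2.13%), with a median log2 fold change of 0.06. The number called higher ran from 0 to 12 with each mouse left out, and without control replicates 3 and 4 it was 10, with 3 lower (all genes in that fit: 652 and 699 of 18921). Kcnj9, a subunit of G protein-gated channels, had 66.6, 62.3, 57.3 and 57.5 CPM in control mice and 73.1 to 80.1 CPM in CUS mice (log2 fold change 0.31, SE 0.06, FDR 0.0162), and Kcnk4, a leak channel, rose from 6.07 ± 0.931 to 9.43 ± 2.03 CPM (0.64). Of 26 tested receptors for monoamines and acetylcholine, Htr2a was called higher and Htr2c and Drd3 lower (all genes: 1.16% and 2.13%), while without control replicates 3 and 4 there were 3 higher and 1 lower. Htr2a, the serotonin receptor of deep-layer excitatory neurons, had 44.2, 38.3, 53.8 and 43.9 CPM in control mice and 55 to 68.1 CPM in CUS mice (0.44, SE 0.09, FDR 0.0246). Htr2c, another serotonin receptor, had 46.7, 54.7, 39.5 and 76.5 CPM in control mice and 30.2 to 35.5 CPM in CUS mice, with a log2 fold change of -0.69 that was -0.47 without control replicate 4. Drd3, a dopamine receptor of ventral striatum, had 0.68, 0.843, 1.01 and 4.44 CPM in control mice and 0.138 to 0.569 CPM in CUS mice, with a log2 fold change of -2.34 that was -1.27 without control replicate 4 (FDR 0.0741). None of 15 tested neuropeptide genes was called (1 higher without control replicates 3 and 4), and the smallest p belonged to Npy (log2 fold change 0.49, FDR 0.0606). The calls of these 5 channel and receptor genes were each lost without CUS replicate 4, without CUS replicate 5 and without control replicate 2 (FDR up to 0.127).

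Of 17 clock genes, Per3, Per2 and Bhlhe40 were called higher and none lower (all genes: 1.16% and 2.13%), with a median log2 fold change of -0.08. Per3, a period gene that represses the clock's activators, had 112, 114, 111 and 110 CPM in control mice and 126 to 152 CPM in CUS mice (log2 fold change 0.32, SE 0.06, FDR 0.0171 from edgeR), and Per2 had 57, 71.9, 71.7 and 70.4 CPM in control mice and 80.4 to 99 CPM in CUS mice (0.37, FDR 0.0304). Bhlhe40, a clock repressor that also belongs to the activity list, had 27 to 33.1 CPM in control mice and 33.6 to 47.3 CPM in CUS mice (0.37, FDR 0.0495). Per3 was lost without control replicate 2 or CUS replicate 5, Per2 also without CUS replicate 1 or 4 (FDR up to 0.0807), and Bhlhe40 without 7 of the mice in turn. There were 5 clock genes called, all higher, without control replicates 3 and 4 (all genes in that fit: 652 higher of 18921). The hour of day at which each mouse was taken is not in the labels. Of 15 chaperones, Hsph1, of the HSP110 family (-0.42), and Cryab, a small heat shock protein that oligodendrocytes express (-0.81), were called lower (all genes: 2.13%), and Cryab overlapped between groups, with control replicates 3 and 4 highest. Both calls were lost without control replicate 2 or 4 or CUS replicate 1, 4 or 5, and Cryab also without the other CUS mice or control replicate 3. The direction of the calls in this list turned with control replicate 4: without it none was called lower and 3 were called higher, and without control replicates 3 and 4 there were 1 lower and 3 higher. None of 31 genes for genome architecture and RNA polymerase II transcription was called with all mice (median -0.07), and 4 were called lower without control replicate 3. Yy1, a member of this list and a zinc finger factor at enhancers and promoters, had a log2 fold change of -0.07 (SE 0.05, FDR 0.442 with all mice). None of 75 tested respiratory chain genes encoded in the nucleus (median 0.06) and none of 73 tested ribosomal protein genes (median 0.01) was called, while 4 and 2 of them were called higher without control replicates 3 and 4. Of 7 tested genes of the mitochondrial genome, all had negative fold changes (-0.93 to -0.58), and mt-Nd4 was called lower (all genes: 2.13%). Their median was -0.71 with all mice and -0.18 without control replicates 3 and 4, when none was called. The call of mt-Nd4 was also lost without control replicate 4 or CUS replicate 1, 2, 4 or 5 (FDR up to 0.0943). Reads of the mitochondrial genome, which a clean preparation of nuclei should lack, were 0.126, 0.151, 0.328 and 0.259% of the total in control replicates 1 to 4 and 0.102 to 0.197% in CUS mice, so that control replicates 3 and 4 were again highest.

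**Figure D4:**
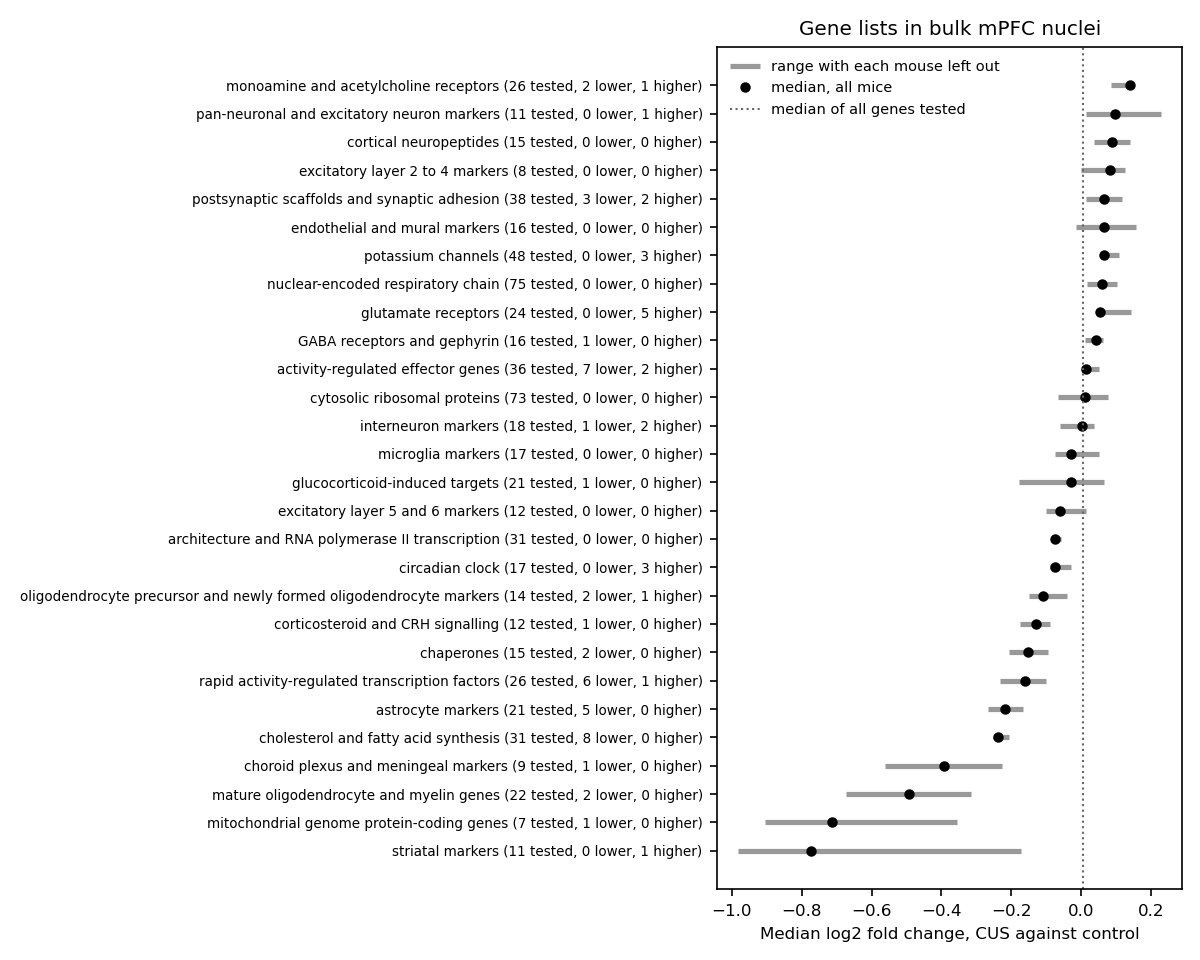
Median log2 fold change (CUS against control) of each gene list with all 9 mice (black points), the range of that median with each mouse left out in turn (gray bars) and the median of all tested genes (dotted line), with the numbers tested and called beside each name. The cholesterol and fatty acid list lies at -0.24 with a narrow range, whereas the striatal, mitochondrial and myelin lists have the lowest medians and the widest ranges.

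Among small RNA genes, 8 microRNA genes of 402 tested and 1 snoRNA gene of 343 were called, all higher in CUS mice. These are 1.99% of microRNA genes and 0.292% of snoRNA genes, against 1.16% of all genes called higher and 3.29% called in either direction. Of the 8, 6 lie in the imprinted Dlk1-Dio3 region of chromosome 12, where long noncoding transcripts of the maternal allele (Meg3, Rian and Mirg) carry many microRNA and snoRNA genes in their introns or exons. The libraries were made from total nuclear RNA, and the counted hairpin genes span 68 (Mir377) to 121 (Mir1193) bases, so that these counts are read as nuclear precursor or host transcript and not as mature microRNA. RefSeq (GRCm38.p6) holds mature sequences for 7 of the 8 genes, all but Gm44347. Mature forms of the called genes are shown so that their seeds can be compared, with the seed (bases 2 to 8) in capitals.
miR-134-5p: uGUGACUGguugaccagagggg
miR-369-3p: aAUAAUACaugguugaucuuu
miR-377-3p: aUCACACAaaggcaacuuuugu
miR-453: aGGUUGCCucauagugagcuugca
miR-1193-5p: uGGUAGACcggugacguaca
miR-3072-3p: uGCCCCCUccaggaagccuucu
miR-27b-3p: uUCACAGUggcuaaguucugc
The 13 mature forms of these 7 genes have 13 different seeds, so the called genes form no seed family. The seed of miR-1193-5p is shared with miR-379-5p of the same region, and that of miR-453 with miR-496a-5p, neither of whose genes was called (log2 fold changes of 0.12 for Mir379 and 0.36 for Mir496a). The seed of the 3p form of miR-1193 is shared with miR-370-5p of the same region, whose gene was likewise not called.

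Fold changes were larger towards the Mirg end of the region. From the start of Meg3 to the end of Mirg (chromosome 12, 109541001 to 109749460, 208 kb), 85 genes were tested, 7 were called, all higher (all genes: 1.16%), and 71 had positive fold changes. Of 57 microRNA genes in this span, the 13 before Rian had a median log2 fold change of 0.13 with no call, the 26 between Rian and Mirg one of 0.30 with 1 call (Mir1193), and the 14 within Mirg one of 0.47 with 5 calls. The difference between these stretches was not tested. All 14 within Mirg were positive, against 216 of 345 tested microRNA genes elsewhere in the genome (median 0.08). Of the long host transcripts, Mirg had 159, 171, 173 and 200 CPM in control mice and 252, 231, 220, 247 and 236 CPM in CUS mice, without overlap (log2 fold change 0.43, SE 0.07, FDR 0.00969 from edgeR), and its call held without any single mouse. Meg3 and Rian each had a log2 fold change of 0.14 (FDR 0.323 and 0.168). Mir134, which lies inside Mirg, had 3.81, 4.18, 4.74 and 4.14 CPM in control mice and 6.97, 6.19, 5.72, 5.7 and 6.4 CPM in CUS mice (log2 fold change 0.55, FDR 0.0167). Mir369 (0.77), Mir377 (0.70), Mir3072 (0.68) and Mir453 (0.48) also lie inside Mirg on the same strand. Genes inside Mirg share its transcript and are not independent of it or of each other. Every call of a microRNA in the region was lost without some single mice, control replicate 2 and CUS replicate 5 in each case (FDR up to 0.137), and the sources do not state how reads on overlapping genes were assigned.

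**Figure D5:**
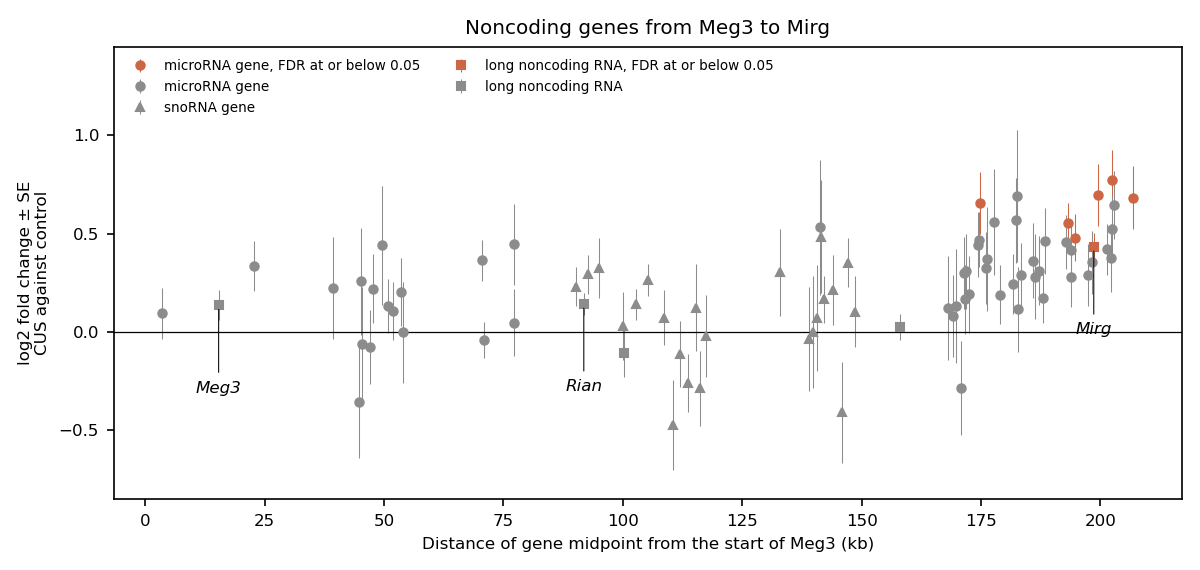
Log2 fold change (CUS against control) with its standard error for 85 tested noncoding genes, by the distance of each gene's midpoint from the start of Meg3 in kb, with microRNA genes as circles, snoRNA genes as triangles, long noncoding RNAs as squares and called genes in orange. The 23 snoRNA genes scatter around 0.10, and the 14 microRNA genes within Mirg, at the right, all lie above 0.

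Outside the region, Mir27b on chromosome 13 had 1.47, 1.25, 1.27 and 2.04 CPM in control mice and 2.24 to 3.37 CPM in CUS mice (log2 fold change 0.89, SE 0.19, FDR 0.0270 from edgeR), while its host on the same strand, 2010111I01Rik, had a log2 fold change of 0.24 (FDR 0.0602). Gm44347, called a microRNA gene in the files, lies within Dlgap2 on the same strand, and both were called higher (1.19 and 0.40). The call of Gm44347 was lost without 7 of the 9 mice in turn (FDR up to 0.0899), and that of Mir27b without CUS replicate 4 or 5 or control replicate 2 (FDR up to 0.0943). The snoRNA gene Gm22680 lies within Snhg1, and had 0.187 to 0.34 CPM in control mice and 0.471 to 0.663 CPM in CUS mice (log2 fold change 1.03). Its call was lost with any single mouse left out. Of 785 tested antisense transcripts, 22 were called (2.80%), against 3.29% of all genes. Of these 22, 18 overlapped a tested protein-coding gene on the other strand, in 21 pairs. Fold changes had the same sign in 15 pairs, a share that was not compared with pairs of uncalled antisense transcripts, and 2 pairs had a called partner. Those 2 were 9530026P05Rik with Adamts9, a protease of the matrix (log2 fold changes -0.54 and -0.68), and 9330111N05Rik with Adgrv1, an adhesion receptor (-0.71 and -0.44). The calls of these partners were lost without 4 (Adamts9) and 5 (Adgrv1) of the mice in turn (FDR up to 0.103). The kit keeps the strand, but the sources do not say whether the counting used it, so reads of a gene and its antisense partner cannot be told apart here. The called lincRNA 6030443J06Rik likewise overlaps Lhfpl3 on the same strand, and both fell (-0.40 and -0.56). A further called lincRNA, Gm32647, fell from 53.5 ± 7.53 to 29.4 ± 5.34 CPM (-0.87) and held its call without any single mouse.

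The direction of calls differed by gene length. Genes were split into quartiles of annotated length, and in the shortest (up to 8.71 kb) 13 were called lower and 56 higher, in the next 42 and 40, in the third 109 and 38, and in the longest (59.2 to 4435 kb) 228 and 80. The medians of the log2 fold change were 0.08, 0.03, -0.02 and -0.05. Protein-coding genes alone showed the same order, with 17 lower and 45 higher in their shortest quartile and 186 and 67 in their longest. Longer genes also had more reads, with a median of 2.37 CPM in control mice in the shortest quartile and 61 CPM in the longest, and the part of depth in the counts of calls was not tested. Without control replicate 3 the longest quartile had 445 lower and 357 higher calls. Without TMM factors the shortest had 22 lower and 32 higher, and the medians ran from 0.06 to -0.08.

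The neocortex libraries offer the same contrast in other mice and another assay. UMIs (molecule counts) of all 5000 deposited barcodes per mouse were summed, 7453901 to 16104362 per mouse, and no doublet caller was applied. The mice were of postnatal day 80, pairs of libraries shared 0 to 9 barcodes, and the batch of each mouse is not in the labels. The paper reports a strong batch effect in these libraries, with control and CUS mice in each batch, and its tests took batch into account. The fits here have no batch term, so a lack of calls in the neocortex cannot be read as a lack of change. In edgeR's quasi-likelihood test 0 of 18174 genes were called (0%), with 1307 at an unadjusted p under 0.05, and the likelihood ratio test called 6 and DESeq2 3. Of the 573 bulk calls that could be matched, 367 (64%) had the same sign in the neocortex, against 58.8% of all 15387 matched genes. A test of the difference between the 2 changes called 5 genes (0.0325% of 15387), Nr4a2, Spag16, Nnat, Mob3a and Gm13844. Nr4a2 had a log2 fold change of -1.76 in the mPFC and 0.08 (SE 0.13) in the neocortex, a difference of -1.85 (SE 0.24, FDR 0.00232 from edgeR). Spag16 had -1.60 and 0.41, Nnat, an imprinted gene of a small membrane protein, -1.03 and 0.21, and Mob3a, a kinase adaptor, -0.49 and 0.81, while the lincRNA Gm13844 had 0.91 and -0.11. The differences of Nr4a2 and Spag16 stayed called with each of the 17 mice left out in turn (FDR up to 0.0475), while those of Mob3a and Nnat were each lost without 7 of the 17 mice and that of Gm13844 without 9 (FDR up to 0.118). On filtered barcodes Nnat and Gm13844 were not called (FDR 0.0555 and 0.0507). The tissues, ages, assays, sequenced mice and, by the Methods, times of collection differ together between these contrasts and cannot be told apart. The Methods give 24 h after the last behavioral test for the mPFC mice and 24 h after the final stressor for the neocortex mice.

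Set side by side, rapid activity-regulated transcription factors had a median log2 fold change of -0.16 in the mPFC and 0.35 in the neocortex over 23 matched genes, with 2 of 23 negative in the neocortex. Fos had -1.05 and 0.37, Fosb -0.60 and 0.74, and Fosl2 -0.73 and 0.35, but among these differences that of Nr4a2 alone was called (FDR 0.0925 for Fosl2). Cholesterol and fatty acid genes had medians of -0.24 and 0.07 and astrocyte markers of -0.22 and 0.31, with no called difference for any member. Chosen after both values were seen, examples with the same sign were Nr3c1 (-0.23 and -0.22), Nr3c2 (-0.23 and -0.29), Adam23 (-0.33 and -0.34), Alcam (-0.31 and -0.35), Htr2c (-0.69 and -0.41), Vgf (0.59 and 0.43), Per2 (0.37 and 0.56) and Neurod6 (0.46 and 0.34), none of them called in the neocortex. Striatal markers had medians of -0.77 and -0.57 over 11 genes, of which 11 were negative in the neocortex, none called. In the neocortex 9 of them had an unadjusted p under 0.05 in edgeR's test (all genes: 1307 of 18174). Negr1, an adhesion gene linked to depression, had -0.10 (FDR 0.524) and -0.26, and Yy1 had -0.07 and -0.29, none of them past the threshold.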

How the data were processed

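Total nuclear RNA of 9 mPFC samples, each of 1 mouse, was depleted of ribosomal RNA (TruSeq Stranded Total RNA with RiboZero). Per the Methods, STAR placed reads on mm10, allowing 1 location per read, and the authors deposited whole counts per gene without normalization. The annotation release, removal of PCR copies and use of introns and strand are not given in the sources used here. The neocortex files hold deposited UMI counts per gene and barcode.

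Tests on the counts used edgeR 4.0.16 in R 4.3.3 (filterByExpr with a minimum count of 10, TMM, quasi-likelihood test, no covariate, FDR 0.05). Alternatives were the study's likelihood ratio test, DESeq2 1.42.0, no TMM factors, no filter, a replicate block, no mitochondrial genes, each mouse left out, and, for the neocortex, barcodes with 600 to 5000 genes and under 5% mitochondrial UMIs. Leaving out control replicates 3 and 4, or 2 and 4, was chosen after seeing the data. The scripts were tested on simulated data.

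The members and gene lists were chosen with earlier results of these data known. By rule, named genes were the 10 per direction with the smallest p among called genes without overlap between groups, the 3 per direction with the largest fold changes, up to 4 called members per list (otherwise the smallest p), called small RNAs, the 4 leading lincRNAs and antisense transcripts per direction, genes the study names, and the 5 smallest p of the difference between assays. Some genes are not reported here. Other names were chosen after their values were seen. Depth was 26188825 to 30525015 reads per mouse. The p-values measure the spread between these mice.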

Additional observations from a re-analysis of the deposited data

Results flagged for a closer look

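Among 290 groups of mice, Dixon's test looked for a value that stands far from the others, and it flags about 1 in 20 groups by chance. It marked 11 groups, and 5 of these were high values of control replicate 4. The groups come from the same mice and are not independent, so their number cannot be judged against that rate. In control replicate 4 Drd2 stood at 19.0 CPM (the other controls at 1.79 to 4.15 CPM), Drd3 at 4.44 CPM (0.680 to 1.01 CPM), Adora2a at 6.64 CPM (1.72 to 2.04 CPM), Mir496a at 3.52 CPM (2.13 to 2.23 CPM) and Gm42825 at 1.97 CPM (0.438 to 0.680 CPM). Control replicate 3 stood high for Tnr at 990 CPM (793 to 802 CPM) and for Mir3072 at 1.27 CPM (0.982 to 1.01 CPM). Control replicate 1 stood low for Sik1 at 9.82 CPM (12.1 to 12.6 CPM) and for Per2 at 57.0 CPM (70.4 to 71.9 CPM). Of the CUS mice, replicate 2 stood low for Lamp5 at 27.3 CPM (34 to 36.4 CPM) and replicate 1 high for Adamts9 at 18.1 CPM (12 to 13.7 CPM).

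The change differed between bulk mPFC and neocortex nuclei, by edgeR's test of the difference of log2 fold changes, for Nr4a2 (-1.85), Spag16 (-2.01), Nnat (-1.25), Mob3a (-1.31) and Gm13844 (1.01). With single mice left out in turn, those of Nnat, Mob3a and Gm13844 were lost in some fits and those of Nr4a2 and Spag16 in none. Tissue, age, assay and, by the Methods, time of collection differ together between these contrasts.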

How the results depend on the processing

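All 606 bulk calls kept their direction in every fit that tested them, but their number did not hold. It was 1330 (796 lower, 534 higher) by the likelihood ratio test and 1413 (859 lower, 554 higher) by DESeq2. It was 822 (619 lower, 203 higher) without TMM factors, and 238 (160 lower, 78 higher) with a replicate block. With each mouse left out it ran from 133 to 1508, with 103 to 805 lower and 25 to 703 higher. It was 1351 (699 lower, 652 higher) without control replicates 3 and 4, and 37 (26 lower, 11 higher) without control replicates 2 and 4. No filter (780 calls) and no mitochondrial genes (617) stayed within 1.5 times. In the neocortex there were 6 calls by the likelihood ratio test, 3 by DESeq2, 121 without a filter and 0 to 17 with each mouse left out. The difference between assays gave 83 calls by the likelihood ratio test, 10 without a filter, 3 on filtered barcodes and 2 to 21 with each mouse left out. The cause of these shifts was not tested. The block rests on replicate numbers that do not pair mice: deviations of same-numbered mice correlated at 0.0249 to 0.146, and 2 of 4 control mice matched best the CUS mouse of their own number. Of 106 called named genes, 64 lost the call without control replicate 2 and 47 with the block. Some named genes that were not called changed sign. With each mouse left out Drd1 (-0.56 with all mice) ran from -0.764 to 0.00729 and Adora2a (-0.60) from -0.808 to 0.124, both above 0 only without control replicate 4, in which they were highest. The others lay nearer 0 with all mice, and with each mouse left out Fkbp5 ran from -0.25 to 0.219, Egr1 from -0.0793 to 0.0422, Egr3 from -0.278 to 0.0199, Bdnf from -0.099 to 0.0371, Srebf1 from -0.0432 to 0.0892 and Mir379 from -0.0477 to 0.249. Without control replicates 3 and 4 Drd1 was at 0.127, Adora2a at 0.117 and Fkbp5 at 0.431, and without control replicates 2 and 4 Drd1 was at 0.00661, Adora2a at 0.0635, Fkbp5 at 0.227, Egr1 at 0.0504, Junb at 0.0601 and Mir379 at -0.183. Bdnf was at 0.0185 with the block and Srebf1 at -0.00814 without TMM factors. Counting depth limits genes under about 1 CPM, such as Nodal, Gm22680 and Gm42825, whose fold changes rest on few reads.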
